A study of Rattus norvegicus with 21 samples.

Results

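The genes described here are 10 components of autophagy, chosen by symbol: the cargo receptors Sqstm1, Nbr1, Optn and Tax1bp1, the ATG8-family genes Map1lc3b, Gabarap and Gabarapl1, the membrane-binding gene Wipi1, the kinase gene Ulk1 and the transcription factor gene Tfeb. All 10 were found among the 32750 genes of the mRNA table, and all 10 had the mean of 10 or more normalized counts required for testing, as did 14410 genes in all. Polyadenylated RNA was sequenced from INS-1 832/13 cells, an insulin-secreting rat insulinoma line. The 4 libraries labelled untreated carry no added agent, and the 5 libraries labelled iAs come from cells given inorganic arsenic at 1 µM for 24 h. All cells were of this 1 line, seeded in 12-well plates 24 h ahead of exposure. The labels do not say whether replicates are separate cultures. The p-values therefore measure only how far these samples spread, which may be technical.

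Autophagy carries cytoplasmic material to lysosomes in double-membraned vesicles. A kinase complex around ULK1 starts a vesicle, WIPI proteins bind its growing membrane, and small ubiquitin-like proteins of the ATG8 family, in an LC3 and a GABARAP branch, are attached to that membrane and hold receptors that bring cargo. The receptor SQSTM1, also called p62, binds ubiquitinated proteins and also KEAP1, the adaptor that directs the oxidant-response factor NRF2 to degradation. Its gene is a known NRF2 target, and TFEB is known as an activator of lysosomal and autophagy genes. In beta cells, autophagy is known to remove damaged mitochondria and surplus insulin granules. Transcript levels do not measure the flow of material through this pathway.

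The column totals were 51009800 to 55869159 normalized counts per library, an estimated 44426722 to 65862779 reads if the most common low value stands for 1 read. The tissue label reads liver, but the hepatocyte marker genes Alb and Cyp2e1 were at 0 in all 9 libraries except for Alb at 2.01 normalized counts in iAs replicate 5, and the summed level of 8 beta cell markers was 2273430 to 2925160. Of 8 listed hepatocyte genes 7 were matched. Their summed level was 2157 to 2577 in the libraries labelled untreated and 1646 to 2038 in those labelled iAs. The other 5 matched genes were expressed. In the same group order, the means were 1225 and 1286 normalized counts for Tf, 637 and 252 for Fgb and 391 and 274 for Serpina1. Those of Apob were 126 and 71.7, and those of Apoa1 11.9 and 13.7. These 5 genes were tested, and 2 of them, Fgb and Apob, were lower. Of 6 fibroblast, endothelial or immune genes 5 were matched, with sums of 68.3 to 128 and 0 to 36.0. Both of those tested, Cd74 and Col1a1, were lower, while Ptprc and Dcn were at 0 throughout. Their part in the results below was not tested. Hmox1, a gene known to be induced by arsenic through NRF2, stood at 12135 to 16234 normalized counts in the libraries labelled untreated and at 1175 to 2337 in those labelled iAs. Nqo1, Gclm and Sqstm1 itself, also known targets of NRF2, were likewise lower. Every direction and percentage below rests on the group labels and would turn if these were exchanged, which was not tested. Lane 3 held every library labelled untreated and lane 4 every library labelled iAs, and these 2 factors cannot be told apart. In RNA from whole wells, fewer cells of a kind and less RNA per cell cannot be told apart either.

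In the libraries labelled iAs, 7 of the 10 genes were lower than in the libraries labelled untreated, none was higher and 3 did not pass the test (limma on log2(value + 1), adjusted p under 0.05 over all genes). Among all genes tested, 30.0% were called, 14.9% as lower and 15.1% as higher. Among the 7650 genes whose mean reached 1000 normalized counts, a limit that all 10 genes exceed and that was chosen after their values were seen, 36.6% were called and 17.5% were called lower. The median log2 difference of the 10 genes was -0.33, against -0.0007 over all genes tested. In 6 of the 10 the groups did not overlap and the iAs side was the lower, as in 12.9% of all genes tested. Gabarapl1, Sqstm1, Optn and Gabarap had the largest differences, while the values of Tax1bp1, Ulk1 and Tfeb overlapped between the groups.

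**Figure D1:**
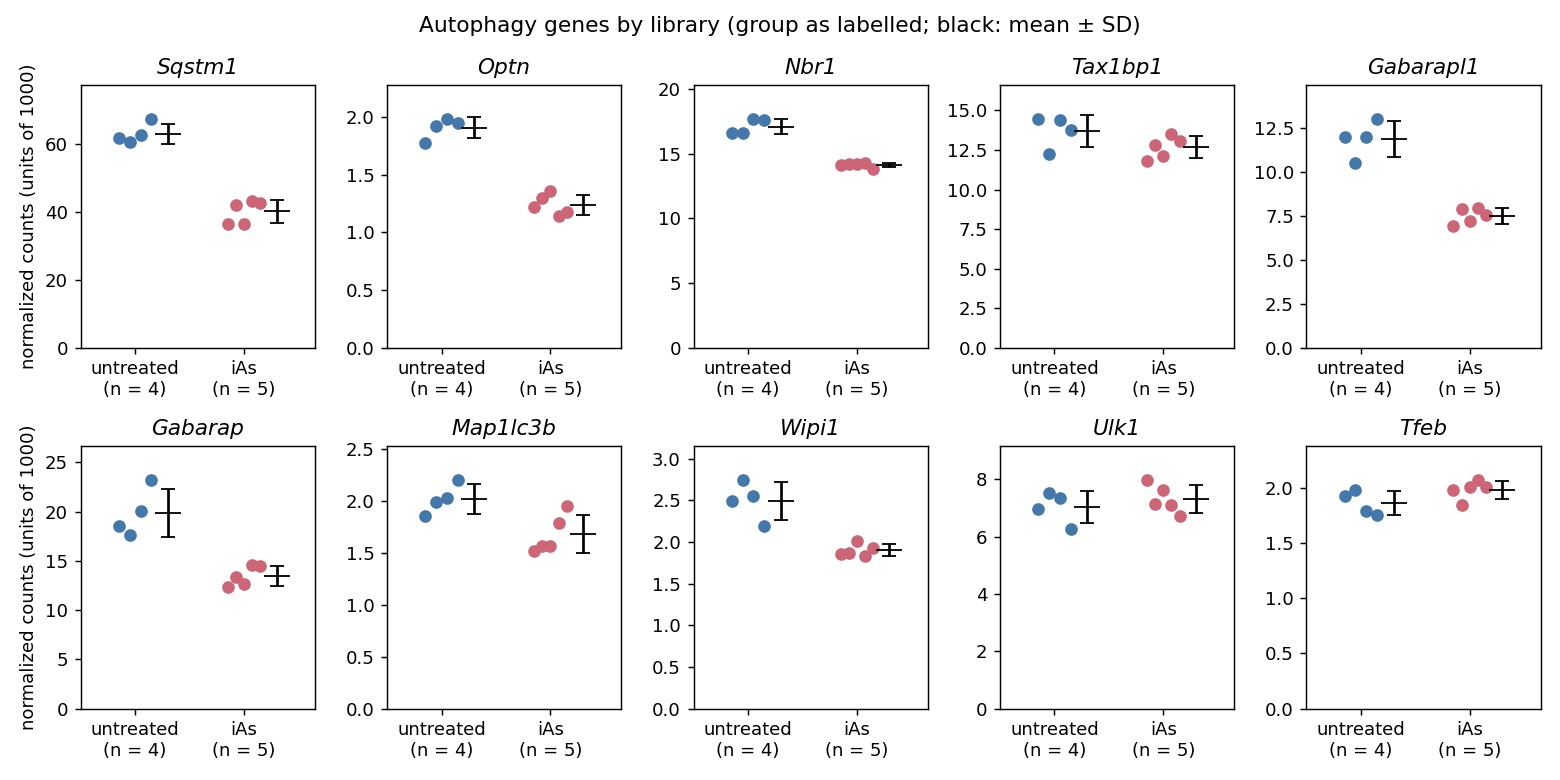
Normalized counts of the 10 genes in each library (1 point per library, in units of 1000, axes from 0), with the mean and SD of each group beside the points. The 2 groups are separate in Sqstm1, Optn, Nbr1, Gabarapl1, Gabarap and Wipi1 and overlap in Map1lc3b, Tax1bp1, Ulk1 and Tfeb.

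Among the receptors, Sqstm1 (ENSRNOG00000003147) had 62032, 60587, 62646 and 67423 normalized counts in untreated replicates 1 to 4. Its values in iAs replicates 1 to 5 were 36645, 42026, 36587, 43244 and 42610. Every library labelled iAs lay below every library labelled untreated, and the gap between the groups was wider than the range within either. The means were 63172 ± 2963 (SD, n = 4) and 40222 ± 3320 (SD, n = 5), so the iAs level was 63.7% of the untreated one. The log2 difference was -0.65 (SE 0.07, limma adjusted p = 4.4e-05), and it stayed between -0.72 and -0.61 and past the threshold in all 21 alternatives. Optn (ENSRNOG00000017941) encodes optineurin, a receptor for damaged mitochondria and bacteria that is phosphorylated by the kinase TBK1. It had 1778, 1922, 1981 and 1949 normalized counts in the libraries labelled untreated and 1219, 1298, 1360, 1140 and 1173 in those labelled iAs. These groups were also separate, and Optn differed by -0.63 in log2 (SE 0.07, limma adjusted p = 6.6e-05).

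Sqstm1 and Optn had similar log2 differences, and the 200 bases before their annotated starts are shown because these receptors had the largest falls of the 4. Within the groups their levels did not follow each other (Pearson r of deviations from the group means -0.40 over 9 libraries, as a description). The sequences are from RefSeq on GRCr8, a later build than the rn6 named for the deposited table, and are read 5′ to 3′ towards the gene.
Sqstm1 (GRCr8 chr10:35037751-35037950, - strand): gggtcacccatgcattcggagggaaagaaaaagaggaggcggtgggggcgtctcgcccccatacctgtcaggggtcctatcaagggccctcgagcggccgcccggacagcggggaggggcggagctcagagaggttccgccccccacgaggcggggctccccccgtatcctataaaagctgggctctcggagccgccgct
Optn (GRCr8 chr17:78118669-78118868, + strand): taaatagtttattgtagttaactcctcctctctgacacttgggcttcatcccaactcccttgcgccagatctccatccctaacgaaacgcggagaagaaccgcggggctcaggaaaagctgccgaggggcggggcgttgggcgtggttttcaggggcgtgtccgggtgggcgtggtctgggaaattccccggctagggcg
Capitals mark a match to any of 3 motifs, and neither stretch holds one. The motifs, searched on both strands from 250 bases before to 50 after the start, were TCACGTGA, a form of the element bound by TFEB and its relatives, TGACNNNGC, the core of the antioxidant response element bound by NRF2, and TGANTCA, the AP-1 site. They occur in 0.867%, 12.2% and 7.33% of 27457 promoters, and in 1.64%, 14.8% and 4.52% of the 9987 promoters of tested genes. The last 2 can overlap each other. The absence of these letters says nothing of sites outside the window. None of the 10 genes had TCACGTGA or the shorter CACGTG in that window. CACGTG is found in 6.65% of all promoters and 9.25% of those of tested genes.

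Nbr1 (ENSRNOG00000020730), a receptor that shares the order of its PB1, zinc finger and ubiquitin-binding domains with SQSTM1, had a smaller difference. Its values were 16552, 16566, 17653 and 17558 normalized counts in the libraries labelled untreated and 14149, 14183, 14192, 14271 and 13806 in those labelled iAs. The groups were separate and the iAs libraries lay close together, with a coefficient of variation of 1.28%. The log2 difference was -0.27 (SE 0.04, limma adjusted p = 6.6e-04). Tax1bp1 (ENSRNOG00000008393), a receptor that also restrains inflammatory signalling, ranged from 12263 to 14443 normalized counts and from 11791 to 13502 in the libraries labelled untreated and iAs. These ranges overlapped over most of their width, and the log2 difference of -0.11 (95% interval -0.25 to 0.02) did not pass the test (limma adjusted p = 0.19). Tax1bp1 was called lower without untreated replicate 2 (-0.17, adjusted p = 0.044), after rescaling to equal totals (-0.15, adjusted p = 0.0402) and with library quality weights (-0.16, adjusted p = 0.034). The 4 receptors thus ran from -0.65 to -0.11 in log2.

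**Figure D2:**
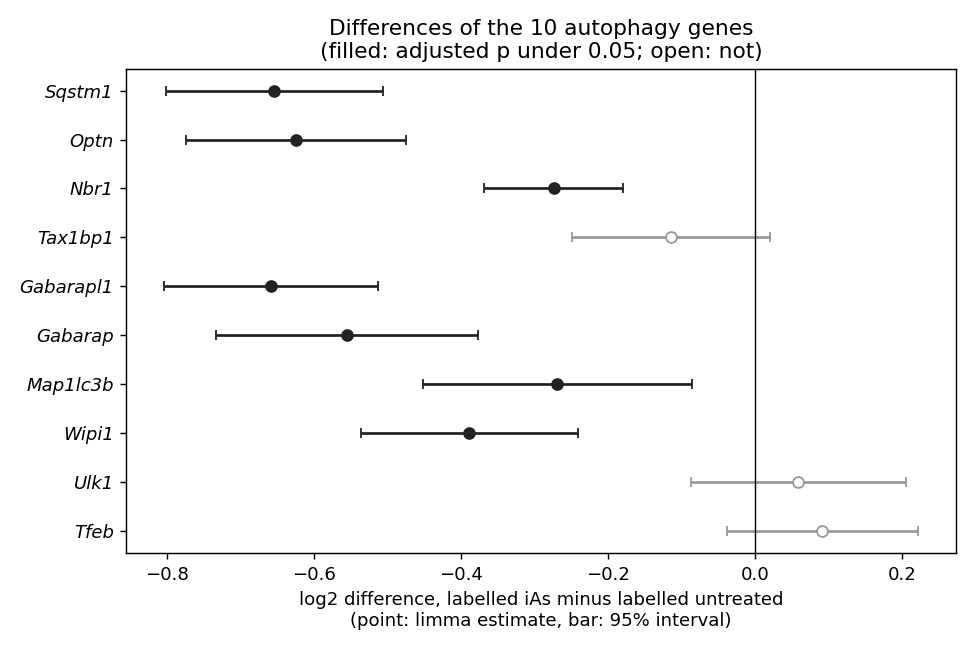
Log2 difference of each gene between the libraries labelled iAs and untreated, with its 95% interval from limma. The intervals of Sqstm1, Optn, Nbr1, Gabarapl1, Gabarap, Map1lc3b and Wipi1 lie below 0, and those of Tax1bp1, Ulk1 and Tfeb include 0.

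Whether Sqstm1 changed more than Nbr1 was tested on the log2 ratio of the pair within each library, which does not depend on library scaling. The ratio was 1.91, 1.87, 1.83 and 1.94 in the libraries labelled untreated and 1.37, 1.57, 1.37, 1.60 and 1.63 in those labelled iAs. It was lower by 0.38 in log2 on average, with no overlap between the groups. An exact two-sided permutation test over libraries gave p = 0.0159, the smallest it can give here, and adjusted p = 0.0238 over the 3 ratios tested. Without untreated replicate 1, 2 or 3 the adjusted p was 0.0536, where the smallest unadjusted p is 0.0357. Because all 3 ratios were chosen with these genes' results known, the p-values describe these libraries only.

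In the ATG8 family, all 3 genes were lower, Gabarapl1 and Gabarap without overlap. Gabarapl1 (ENSRNOG00000053362) had 12036, 10535, 12022 and 13025 normalized counts in the libraries labelled untreated and 6914, 7912, 7251, 7979 and 7588 in those labelled iAs. The iAs level was 63.2% of the untreated one, with no overlap (log2 difference -0.66, SE 0.07, limma adjusted p = 3.8e-05). Gabarap (ENSRNOG00000017417) had 18508, 17654, 20044 and 23217 normalized counts against 12316, 13342, 12658, 14552 and 14459. Untreated replicate 4 was the highest library for both genes, and every library labelled iAs lay below every one labelled untreated. The log2 difference of Gabarap was -0.56 (SE 0.08, limma adjusted p = 4.1e-04).

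Map1lc3b (ENSRNOG00000017905) encodes LC3B, the protein most used to mark autophagosomes. It had 1855, 1988, 2022 and 2200 normalized counts in the libraries labelled untreated and 1519, 1564, 1568, 1787 and 1952 in those labelled iAs. The highest iAs library, replicate 5, lay above the lowest untreated one, replicate 1. The log2 difference of -0.27 (SE 0.08, 95% interval -0.45 to -0.09) passed the test narrowly (limma adjusted p = 0.030). That call was lost on leaving out untreated replicate 2, 3 or 4 or iAs replicate 1, 2 or 3 (adjusted p of 0.0501 to 0.0793) and without a trend in the prior variance (0.0543). The call was also lost within the 5 libraries whose code in the description ends in 52 (-0.15, adjusted p = 0.37). The titles of some libraries give another ending. Of the 7 genes called, it was the 1 whose call depended on the alternative.

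The log2 ratio of Map1lc3b to Gabarap was -3.32, -3.15, -3.31 and -3.40 in the libraries labelled untreated and -3.02, -3.09, -3.01, -3.02 and -2.89 in those labelled iAs. It was higher by 0.29 in log2 on the iAs side, again with no overlap (exact permutation p = 0.0159, adjusted p = 0.0238 over the 3 ratios). Leaving out untreated replicate 1, 2 or 3 gave an adjusted p of 0.0536 here too. Gabarapl1 to Gabarap ran from -0.83 to -0.62 and from -0.93 to -0.75, which overlap, and the change of -0.10 did not pass the test (exact permutation p = 0.0952, adjusted p = 0.0952). It did so without untreated replicate 4 (-0.14, adjusted p = 0.0357). The missed threshold does not show that these relatives changed alike.

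**Figure D3:**
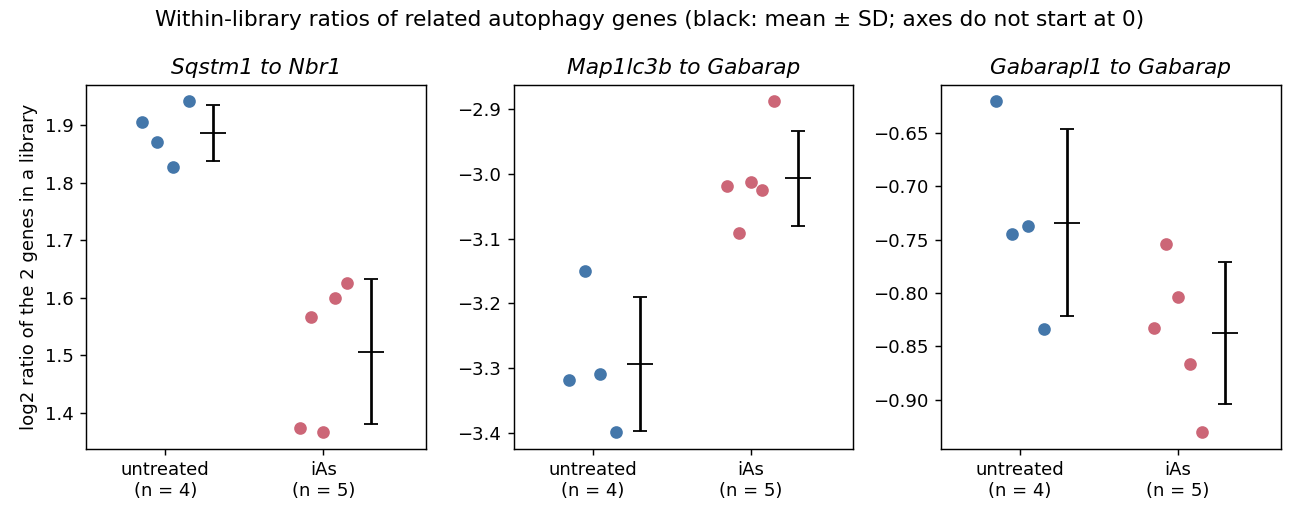
Log2 ratio of 2 related genes within each library (1 point per library, with the mean and SD of each group beside the points; the vertical axes do not start at 0). Sqstm1 to Nbr1 is lower and Map1lc3b to Gabarap higher in all 5 libraries labelled iAs than in any labelled untreated, while Gabarapl1 to Gabarap overlaps.

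The promoters of these 3 ATG8-family genes are shown to the same length, because the 3 motif matches found among the 10 genes all lie in 2 of them. Capitals mark TGACNNNGC on the minus strand in Gabarap, from position -179 relative to the start, and TGANTCA in Map1lc3b, from position -17.
Gabarap (GRCr8 chr10:55213265-55213464, + strand): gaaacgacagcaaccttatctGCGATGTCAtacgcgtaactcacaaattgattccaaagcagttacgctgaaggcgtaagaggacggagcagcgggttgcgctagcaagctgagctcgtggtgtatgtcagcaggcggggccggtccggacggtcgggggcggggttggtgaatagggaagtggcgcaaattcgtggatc
Gabarapl1 (GRCr8 chr4:164666132-164666331, + strand): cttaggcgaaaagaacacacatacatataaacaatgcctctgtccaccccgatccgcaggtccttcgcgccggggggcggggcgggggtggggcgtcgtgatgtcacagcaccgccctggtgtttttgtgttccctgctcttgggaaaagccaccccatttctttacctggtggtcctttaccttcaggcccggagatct
Map1lc3b (GRCr8 chr19:66574395-66574594, + strand): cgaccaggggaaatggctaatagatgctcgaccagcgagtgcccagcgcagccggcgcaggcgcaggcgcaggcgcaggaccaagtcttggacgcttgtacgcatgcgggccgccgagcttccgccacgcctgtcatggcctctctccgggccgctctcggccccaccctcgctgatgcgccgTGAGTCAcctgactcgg
Map1lc3b also has TGACNNNGC on the plus strand from position -8, left in lower case because its last base lies beyond the printed stretch. Gabarapl1 held none of the motifs in its window. A match is a description of the letters and not a bound site. TGACNNNGC was present in 2 of the 10 promoters, against 12.2% of all promoters and 14.8% of the 9987 promoters of tested genes.

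Wipi1 (ENSRNOG00000003827), which binds phosphatidylinositol 3-phosphate on the forming vesicle, had 2492, 2744, 2555 and 2195 normalized counts in the libraries labelled untreated. Its values in the libraries labelled iAs were 1856, 1870, 2016, 1837 and 1925. The groups were separate, with untreated replicate 4 nearest to the iAs libraries. The log2 difference was -0.39 (SE 0.07, limma adjusted p = 0.0012), and all 21 alternatives kept it past the threshold. Ulk1 (ENSRNOG00000037505), the kinase that starts autophagy, ranged from 6250 to 7531 normalized counts in the libraries labelled untreated and from 6729 to 7975 in those labelled iAs. Its log2 difference was 0.06 (95% interval -0.09 to 0.21, limma adjusted p = 0.55). Tfeb (ENSRNOG00000014666) ranged from 1754 to 1980 and from 1851 to 2074, with a log2 difference of 0.09 (95% interval -0.04 to 0.22, limma adjusted p = 0.28). Neither gene passed the test in any of the 21 alternatives, and both intervals exclude a fall as large as that of Nbr1.

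The level of Sqstm1 over the 9 libraries was compared with that of 12784 genes whose mean reached 50 normalized counts, as a description that includes the difference between the groups. The highest Pearson correlations of log2(value + 1) were those of Mgmt, a DNA repair gene (0.995), Copg1, a coat protein of Golgi vesicles (0.993), Scg3, a secretory granule protein (0.992), Akr1c12, an aldo-keto reductase (0.992), Mboat7l1 (0.991) and Cidec, a lipid droplet protein (0.991). The lowest were those of Pigq (-0.994), which acts in glycosylphosphatidylinositol anchor synthesis, Adarb1 (-0.993), an RNA-editing deaminase, and Col9a1 (-0.991), a collagen chain. Gabarapl1 ranked 26th and Gabarap 131st of these genes, while Ulk1 ranked 9055th. The oxidant-response genes Nqo1 and Gclm, which like Sqstm1 are NRF2 targets, had log2 differences of -1.07 and -1.06 (limma adjusted p = 3.4e-05 and 1.8e-06), and Hmox1 one of -3.06 (8.5e-07).

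The wider pathway was taken as 134 further genes in 10 lists, of which 128 were matched and 125 tested. Of these, 53 were lower and 4 higher, so that 42.4% were called lower against 14.9% of all genes tested. Their median log2 difference was -0.15. The call of 48 of the 57 genes held without each of the 9 libraries in turn, and 35 were called in all 21 alternatives. The lysosome, proton pump and fusion lists held 17, 10 and 8 of the 53 falls. Differences between lists were not tested.

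**Figure D4:**
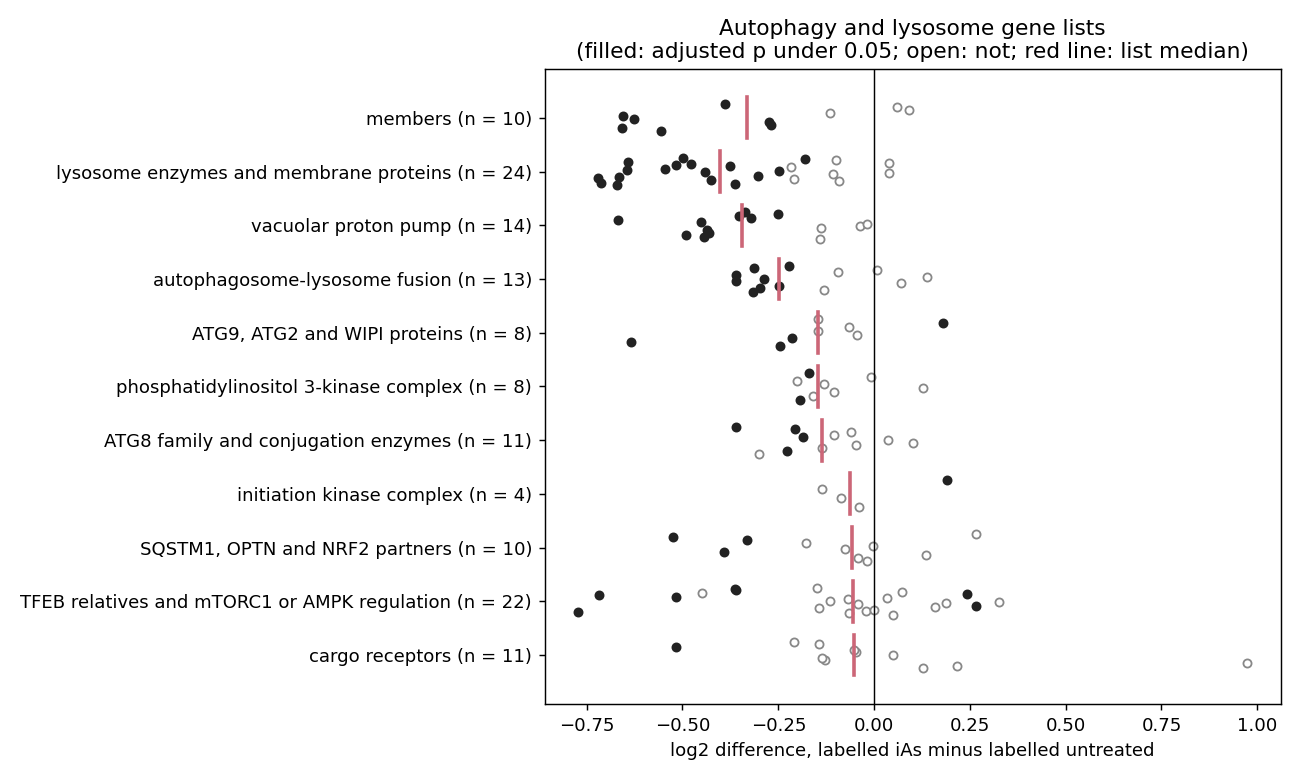
Log2 difference of each tested gene between the libraries labelled iAs and untreated, by list, with the list median as a red line and genes past the threshold filled. The medians lie lowest for lysosome enzymes and membrane proteins (-0.40) and for the vacuolar proton pump (-0.34) and nearest to 0 for other cargo receptors (-0.05).

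Of 24 tested lysosome enzymes and membrane proteins 17 were lower and none higher (median -0.40). These 17 were 70.8% of the list, against 14.9% called lower among all genes tested. Lamp1, a main protein of the lysosome membrane, was at -0.65 (limma adjusted p = 4.8e-05). The cathepsin genes Ctsl (-0.72), Ctsa (-0.71) and Ctsd (-0.43) fell, whereas Ctsb, at -0.09 (adjusted p = 0.31), did not pass the test. Cd63 (-0.67), Npc2 (-0.64), Lamp2 (-0.55), Naglu (-0.52), Tpp1 (-0.50), Neu1 (-0.48), Hexa (-0.44), Clcn7 (-0.36), Gla (-0.30) and Scarb2 (-0.18) fell as well. Gla was not called on leaving out untreated replicate 3 (adjusted p = 0.073), and Scarb2 kept its call on leaving out untreated replicate 2 or iAs replicate 5 and no other library (0.057 to 0.14). With the replicate number as a block, Gla (0.061) and Scarb2 (0.076) were not called. Within the libraries of code ending 52 they were not called either (0.12 and 0.064).

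The vacuolar proton pump acidifies the lysosome and the insulin granule. Of its 14 tested genes 10 were lower and none higher (median -0.34), and each of those calls held without any 1 library. The share called lower was 71.4%, against 14.9% among all genes tested. Atp6v0a1 at -0.44 (limma adjusted p = 6.8e-05) and Atp6v0d1 at -0.44 (1.0e-04) had the smallest adjusted p. Atp6v1d (-0.67), Atp6v0b (-0.49), Atp6v1c1 (-0.45), Atp6v0c (-0.43), Atp6v1f (-0.35), Atp6v1h (-0.34), Atp6v1e1 (-0.32) and Atp6v1g1 (-0.25) also fell. Within the libraries of code ending 52 Atp6v1g1 was not called (limma adjusted p = 0.15). Among 13 genes of autophagosome-lysosome fusion 8 were lower and none higher (median -0.25), so that 61.5% were called lower, again against 14.9%. The small GTPase gene Rab7a, at -0.30 (adjusted p = 6.7e-04), and the tethering subunit gene Vps41, at -0.31 (0.0024), had the smallest adjusted p. The others were Vps18 (-0.36), Vamp8 (-0.36), Epg5 (-0.32), Vps11 (-0.29), Snap29 (-0.25) and Ykt6 (-0.22). Ykt6 was not called on leaving out untreated replicate 1, 3 or 4 or iAs replicate 1, 2 or 3 (0.051 to 0.15). Vamp8 (0.067), Epg5 (0.078) and Vps11 (0.11) were not called within the libraries of code ending 52. Nor were Epg5 (0.058) and Ykt6 (0.071) with the replicate number as a block.

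Although TCACGTGA was in none of the 10 promoters, it was in 11 of 104 pathway promoters, namely those of 5 of 13 fusion genes, 3 of 19 lysosome genes, 2 of 11 pump genes and 1 of 10 ATG8-family and conjugation genes, and in none of the other 6 lists. This compares with 0.867% of all promoters and 1.64% of the 9987 promoters of tested genes. Whether the 10 genes differ from the wider pathway in this was not tested. Of the 11 pathway genes that hold it, 6 were called lower and 5 were not called. The 5 were Mcoln1 (log2 difference -0.22), Atp6v0e1 (-0.14), Vps33a (-0.09), Atg3 (-0.05) and Vps16 (0.14). After rescaling to equal totals, with a code-ending block or with library quality weights, Mcoln1 and Atp6v0e1 were called lower. With library quality weights Vps16 was called higher. With or without the motif, 61.5% of tested fusion genes, 70.8% of lysosome genes and 71.4% of pump genes were called lower. Among all genes tested the share was 14.9%. Whether genes with the motif fell more often than others of their lists was not tested. The stretches around the match in 4 of the 6 genes called lower are shown as examples from the lysosome, pump and fusion lists. The match is in capitals, and the genes not called are not shown.
Lamp1 (GRCr8 chr16:83075075-83075149, - strand): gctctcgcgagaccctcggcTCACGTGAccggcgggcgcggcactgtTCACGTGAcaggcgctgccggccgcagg
Ctsd (GRCr8 chr1:206968822-206968852, - strand): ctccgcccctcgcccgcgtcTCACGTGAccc
Atp6v0d1 (GRCr8 chr19:50357274-50357321, - strand): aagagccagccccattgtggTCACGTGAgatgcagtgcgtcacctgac
Snap29 (GRCr8 chr11:97113319-97113366, - strand): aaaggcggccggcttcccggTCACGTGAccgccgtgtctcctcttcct
Lamp1 carried the motif at 2 places, from positions -66 and -39 relative to its start, Ctsd from -11, Atp6v0d1 from -53 and Snap29 from -151.

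Of 11 further ATG8-family and conjugation genes 4 were lower and none higher, namely Map1lc3a (-0.36, limma adjusted p = 0.0011), Atg12 (-0.23, 0.0092), Gabarapl2 (-0.21) and Atg4d (-0.18), and Atg4d kept its call on leaving out untreated replicate 2 and no other library (0.052 to 0.14). These 4 genes were 36.4% of those tested in the list, against 30.0% called among all genes tested (14.9% as lower). With Map1lc3a and Gabarapl2, all 5 tested genes of the ATG8 family were lower, with log2 differences from -0.66 to -0.21. Within the libraries of code ending 52, Map1lc3b (limma adjusted p = 0.37), Gabarapl2 (0.074), Atg12 (0.059) and Atg4d (0.11) were not called. Of 8 genes of the ATG9, ATG2 and WIPI proteins, the lipid transfer genes Atg2b (-0.63, adjusted p = 9.0e-05) and Atg2a (-0.24, 0.0072) and the scramblase gene Atg9a (-0.22) were lower and Wdr45b (0.18) was higher. The Atg9a call held on leaving out untreated replicate 4 or iAs replicate 1 and no other library (0.058 to 0.13), and Wdr45b was not called on leaving out untreated replicate 1, 3 or 4 or iAs replicate 4 or 5 (0.055 to 0.079). Atg2a (0.066), Atg9a (0.21) and Wdr45b (0.077) were not called within the libraries of code ending 52. In the phosphatidylinositol 3-kinase complex 25% of 8 genes were called, against 30.0% of all genes tested (14.9% as lower). These 2 genes, both lower, were Ambra1 (-0.19, adjusted p = 0.014) and Uvrag (-0.17, 0.041). Neither was called with a replicate block (0.11 and 0.16) or within the libraries of code ending 52 (0.13 and 0.24). Uvrag kept its call on leaving out untreated replicate 1 or 2 and no other library (0.054 to 0.10), and Becn1 was at -0.10 (0.22).

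Of the 4 genes that act with Ulk1 or in its place, Ulk2 was higher, at 0.19 (limma adjusted p = 0.045), and kept that call on leaving out iAs replicate 3 and no other library (0.051 to 0.11). Rb1cc1, the scaffold of the complex, was at -0.14 (0.095). Of the 4 genes 25% were called, against 30.0% of all genes tested. Among 11 other cargo receptors 1 was lower, the endoplasmic reticulum receptor gene Tex264 (-0.52, adjusted p = 8.8e-04), and none higher. The next smallest adjusted p was that of Fkbp8 (-0.13, 0.063), which was called without iAs replicate 4 (0.027). After rescaling to equal totals, quantile normalization or library quality weights 3 of these receptors were lower, Fkbp8 among them each time. The mitochondrial receptor genes Bnip3 (0.39, adjusted p = 0.0089) and Bnip3l (0.35, 0.039) were called higher within the 5 libraries of code ending 52. Bnip3l was also called higher without untreated replicate 4 (0.043), with a code-ending block (0.035) and with library quality weights (0.017). These 11 receptors had a median of -0.05, and 9.09% of them were called.

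Of 22 genes around TFEB, mTORC1 and AMPK 5 were lower and 2 higher (median -0.05), so that 31.8% were called, near the 30.0% of all genes tested. Flcn, the folliculin gene, at -0.77 (limma adjusted p = 1.3e-04), Rragd at -0.72 (3.6e-04) and Rragc at -0.52 (4.5e-04), the GTPases through which lysosomal mTORC1 controls TFEB, were lower. Tsc1, an inhibitor of mTORC1, at -0.36 (0.0024) and Tfe3, the relative of Tfeb, at -0.36 (0.014) were lower as well, while Mlst8 (0.27) and Sesn1 (0.24) were higher. Of these 7 calls 3 held in all 21 alternatives. Within the libraries of code ending 52, Tsc1 (0.052) and Tfe3 (0.18) were not called. With a replicate block, Mlst8 (0.053) and Sesn1 (0.065) were not called, nor was Mlst8 after rescaling to equal totals (0.058). Sesn2 was at -0.45 (0.096) and was called without iAs replicate 2 (-0.61, 0.011), with a block for the library-code ending (-0.42, 2.6e-05) and within the libraries of code ending 52 (-0.42, 0.0022). Prkaa2, at 0.32 (0.071), was called without untreated replicate 2 (0.014) or iAs replicate 4 (0.036) and with the code-ending block (0.036). With library quality weights, Sesn2 (0.045) and Prkaa2 (0.015) were called too. Among 10 partners of SQSTM1, OPTN and NRF2, 3 were lower and none higher, namely Tnip1 (-0.53, 1.3e-04), Keap1 (-0.39, 1.4e-04) and Tbk1 (-0.33, 9.8e-04). The share called was thus 30%, the same as the 30.0% of all genes tested, of which 14.9% were called lower. Nfe2l2, the gene of NRF2 itself, was at -0.08 (95% interval -0.27 to 0.12, limma adjusted p = 0.57). Traf6, at 0.27, was called higher without untreated replicate 2 (0.012) and Hdac6, at 0.13, without iAs replicate 3 (0.044). Both were also called higher within the libraries of code ending 52 (0.033 each) and with library quality weights (0.029 and 0.045).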

How the data were processed

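The mRNA values are a signal deposited by the authors, namely counts of reads that DESeq2 had normalized, as the labels name them. The submitters' processing notes list DESeq2, STAR, Salmon and the build rn6, and versions and roles are not given in the sources used here. Only 65.9% to 88.9% of values under 10 were whole multiples of the most common low value within 0.05 reads, so whole reads were not recovered and no count test was run. Each column was assigned through the library code in a sample's description, and 4 libraries carry a different code of the same group in the title. The small RNA table was not used here.

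The test of each gene was limma 3.58.1 (R 4.3.3) with a mean-variance trend, applied to log2(value + 1) of genes whose mean over the 9 libraries reached 10, with Benjamini-Hochberg adjustment over all genes tested and a threshold of 0.05. All log2 differences use this pseudocount of 1, which understates the change of low genes. Ratios of 2 genes were tested by exact two-sided permutation over libraries in SciPy 1.17.1, adjusted over 3 ratios. Levels were not compared between genes, because no transcript length was used. The members and lists were chosen with earlier results of these data known. Named genes were the 10 members, in each list the 2 genes with the smallest adjusted p and all called genes, the 6 genes most and the 3 least correlated with Sqstm1, and a few oxidant-response genes and partners. A few called lysosome genes under this rule are not reported here. The mean of 1000 used for a second background was chosen after values were seen. Becn1, Ctsb, Bnip3, Bnip3l, Sesn2, Prkaa2, Traf6 and Hdac6 and the named cell type markers stand beside this rule, added after their values were seen. So do Atg3, Vps16, Vps33a, Mcoln1 and Atp6v0e1, which hold TCACGTGA and were not called. All 10 members matched the RefSeq promoter table, and 104 of the 128 matched pathway genes did. Alternatives covered the pseudocount, the filter, scaling, blocks, the variance model and leaving out each library.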

Additional observations from a re-analysis of the deposited data

Results flagged for a closer look

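Within 1 group of 4 or 5 libraries, 12 of 168 combinations of gene or ratio and group had a library far from the others (a gap to its nearest neighbour above Dixon's 95% limit), and chance flags about 1 in 20. Among the 10 members, this held for Nbr1 in iAs replicate 5, at 13806 normalized counts against 14149 to 14271 in the other iAs libraries, all below the libraries labelled untreated. Sesn2, a stress-induced inhibitor of mTORC1, was high in a pair of libraries that share a code ending, at 22880 normalized counts in untreated replicate 4 (others 13051 to 13823) and at 17424 in iAs replicate 2 (others 9651 to 10512). Untreated replicate 4 stood apart in 5 more pathway genes, with Tnip1 at 4291 (others 5203 to 5317), Keap1 at 4742 (5044 to 5093), Wdr45b at 2456 (2677 to 2697), Ulk2 at 2035 (2286 to 2332) and Tfe3 at 1714 (1602 to 1610). Atg12 was at 3935 in untreated replicate 1 (others 3583 to 3640) and Gla at 1756 in untreated replicate 3 (1561 to 1577). Vps11 was at 1364 in iAs replicate 2 (others 1521 to 1576) and Tsc1 at 1346 in iAs replicate 1 (1204 to 1234).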

How the results depend on the processing

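Over 21 alternatives, 6 of the 7 called members (Sqstm1, Optn, Nbr1, Gabarapl1, Gabarap and Wipi1) stayed past the threshold, and between 6 and 8 of the 10 members were called, all of them lower. Between 43 and 72 of the 125 pathway genes were called, against 57. No direction of a called gene was reversed. With the replicate number as a block, where iAs replicate 5 adds nothing, 2761 genes were called (1351 higher and 1410 lower) against 4321, and all 7 members kept their call. A block for the library-code ending gave 5278 (2681 higher and 2597 lower), again with all 7. Pathway genes called were 44 and 65 under these blocks. The labels do not say that the numbers pair libraries, and the correlation of deviations between same-numbered libraries was 0.03, -0.04, 0.01 and -0.04 for replicates 1 to 4. The largest value among all pairs, 0.17, was that of untreated replicate 4 with iAs replicate 2, which share a code ending. With this replicate block the Sqstm1 to Nbr1 ratio changed by -0.41 and the Map1lc3b to Gabarap ratio by 0.26 in log2 (exact p = 0.125 each, the smallest that 4 pairs allow). Within the 5 libraries of code ending 52 these changes were -0.33 and 0.34 (exact p = 0.20 each, the smallest possible there). Leaving out 1 library gave -0.41 to -0.35, 0.25 to 0.33 and, for Gabarapl1 to Gabarap, -0.14 to -0.065. Rescaling to equal totals moved the median of all genes by less than 0.1, to -0.03, and gave 1787 higher and 2528 lower genes. For single genes other than Sqstm1 and for the counts of each list, 3072 results stayed the same. A gene stayed the same on its side of the threshold, and a count within 1.5 times. Of the other results, 113 fell short of the threshold, 61 passed it and 51 were counts that moved by more than 1.5 times.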
